A study of Mus musculus with 4 samples.

Results

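The colony-stimulating factors and the growth factors closest to them were followed here in mouse endothelial cells grown from induced pluripotent stem cells (iPSCs), which are body cells turned back to an embryonic state. The 8 genes are Csf1, Csf1r, Il34, Csf2, Csf3, Csf3r, Kitl and Kit. Members were the probe sets whose platform annotation names 1 of these genes, which gave 17 of 45101 probe sets on the array and 8 of 18193 genes. All 8 genes were found, and 0 probe sets named a member together with another gene. The set was put together with the higher Csf1 level in obesity already known, so each of their differences between the groups is a description with its error and carries no test.

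Of the 4 mice, all aged 24 weeks, 2 were healthy controls and 2 had diet-induced obesity (DIO), and each gave 1 array. All cells were grown in a medium for endothelial cells and lifted with trypsin. Total RNA was labelled with biotin for Affymetrix expression arrays. The strain, the diets, the number of iPSC lines per mouse and any sorting step are not named in the labels, and their cell type entry reads iPSC where the titles name derived endothelial cells. The arrays of 1 group came from different mice, so differences between them may lie in the animals, the cell lines, the cultures or the technique. These cannot be told apart here. Levels are the deposited log2 values, so a difference of 1 is a 2-fold change, and differences are DIO means less control means with the standard error (SE) of a linear model (limma) fitted to 45037 probe sets.

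Colony-stimulating factors are secreted or membrane-bound proteins that keep blood cell precursors alive and drive them to divide and mature. Csf1 and Il34 both bind Csf1r, a receptor tyrosine kinase of macrophages and their precursors that trophoblast cells of the placenta also carry. Csf2 and Csf3 act on granulocytes and macrophages through cytokine receptors, and Kitl (stem cell factor) acts through Kit, a kinase of the same class as Csf1r found on blood stem cells, mast cells, melanocytes and germ cells. Endothelial cells are known producers of Csf1, Csf2, Csf3 and Kitl.

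The ligand genes lay in opposite directions: the Csf1 level was higher and the Kitl level lower on both DIO arrays than on both control arrays, in all 4 probe sets of each gene. The 250 bases before the start of these 2 genes are shown because they hold the promoter-proximal sequence of the members whose single probe sets differed most in each direction (RefSeq, GRCm38.p6, 5′ to 3′ on the gene's strand). Capitals mark matches to 5 motifs searched on both strands: a kappa-B site (GGACTTTCC, a classical site less its first base), a TATA box (TATAAA), a GC box (GGGCGG), an AP-1 site (TGANTCA) and a STAT site (TTCNNNGAA).
Csf1, chr3:107760470-107760719, minus strand: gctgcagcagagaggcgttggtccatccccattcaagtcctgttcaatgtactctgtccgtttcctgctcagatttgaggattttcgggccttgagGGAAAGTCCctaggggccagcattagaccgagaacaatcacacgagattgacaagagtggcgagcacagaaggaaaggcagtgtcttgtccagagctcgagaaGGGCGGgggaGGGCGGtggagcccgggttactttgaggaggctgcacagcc
Kitl, chr10:100015571-100015820, plus strand: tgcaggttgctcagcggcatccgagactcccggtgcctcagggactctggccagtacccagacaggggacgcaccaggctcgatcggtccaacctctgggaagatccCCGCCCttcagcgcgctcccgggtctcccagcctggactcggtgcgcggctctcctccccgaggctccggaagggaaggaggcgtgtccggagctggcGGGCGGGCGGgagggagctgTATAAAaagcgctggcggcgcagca

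Upstream of Csf1, the kappa-B letters, the sequence bound by NF-kB factors, were found on the opposite strand from base 154 to base 146 before the start, and 2 GC boxes lay nearer the start, the closer of them ending 36 bases before it. The kappa-B match overlapped no other motif searched. Of 32851 upstream windows of this length, 93 held these letters (0.283%), a GC box was in 32.7% and a TATA box in 12.4%. Upstream of Kitl, a TATA box lay from base 25 to base 20 before the start, with 3 GC boxes, of which 2 overlap each other. Windows for 5 of the 8 genes were searched, and none was used for Csf1r, Il34 and Csf3. The search of member windows left out a chromosome, so an unused window does not mean that a gene has none. The Csf2 and Kit windows held a GC box and that of Csf3r held none of the 5 motifs. An AP-1 site was in 6.75% and a STAT site in 7.02% of all windows, and in 0 of the member windows searched. Among 64 measured genes with the kappa-B letters in a window, the median difference between the groups was 0.026, against 0.018 for 14452 measured genes with a window.

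**Figure D1:**
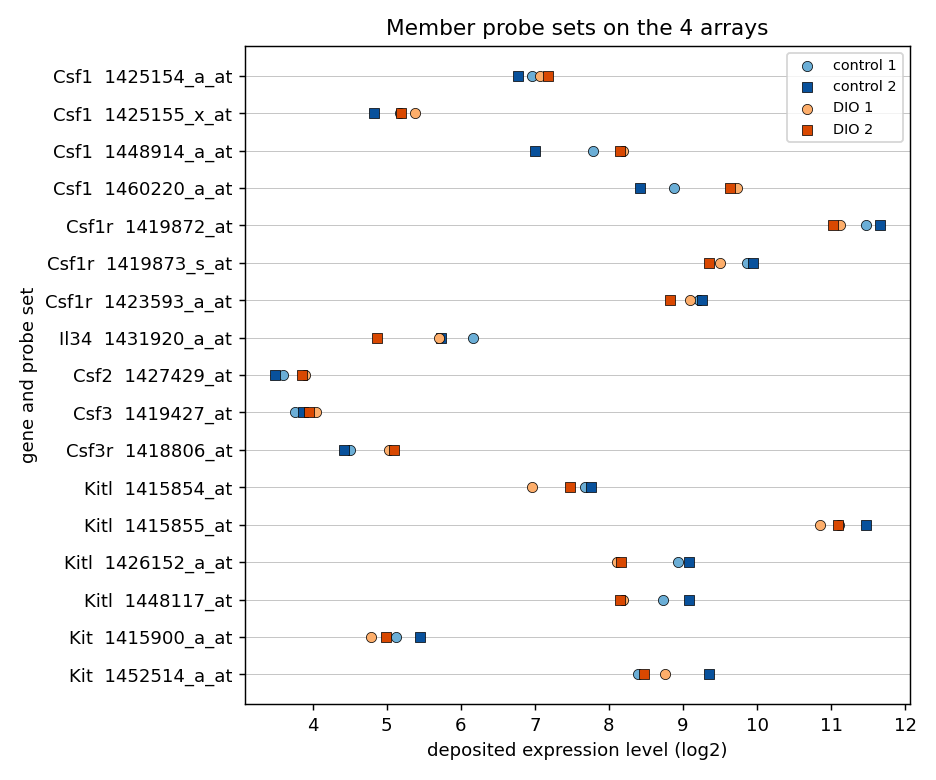
Deposited log2 expression level (horizontal axis) of each of the 17 member probe sets (rows), with a point for each of the 4 arrays. The DIO points lie right of both control points in all 4 Csf1 rows and left of them in all 4 Kitl and all 3 Csf1r rows, while the groups overlap for Kit 1452514_a_at.

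Csf1, the growth factor that macrophages need to survive, was read by 4 probe sets. On the brightest of them, 1460220_a_at, the levels were 8.88 and 8.42 in control 1 and control 2 and 9.73 and 9.63 in DIO 1 and DIO 2. The DIO arrays lay close together and above both controls, with a gap of 0.75 between the lower DIO array and the higher control. The means were 8.65 ± 0.33 (SD, n = 2) in control and 9.68 ± 0.067 (SD, n = 2) in DIO. That is a difference of 1.03 ± 0.19 (SE), or 2.04-fold, with a range of 0.75 to 1.31 over the 4 pairs of a DIO with a control array. Among 18193 genes, each represented by its brightest probe set, Csf1 held place 20 by the size of a higher DIO mean. An upward gap at least as wide was found in 8 genes including Csf1. Among 45037 probe sets, its 4 held places 51, 202, 4942 and 6192. Csf1 was chosen with its higher DIO level known, so these places are a description and lend it no support.

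Its other probe sets had the same direction and smaller differences. On 1448914_a_at the levels were 7.79 and 7.0 on the control arrays against 8.19 and 8.16 on the DIO arrays, a difference of 0.78 ± 0.29. Most of its spread lay between the controls, which were 0.79 apart, while the DIO arrays were 0.031 apart. On 1425154_a_at the levels were 6.96 and 6.77 against 7.07 and 7.17, a difference of 0.26 ± 0.13, and on 1425155_x_at they were 5.17 and 4.83 against 5.39 and 5.20, a difference of 0.29 ± 0.17. In this array design an _x_at probe set may also bind similar sequences of other genes, and on it the groups were only 0.022 apart. Control 2 was the lowest array in all 4 probe sets. Without control 2 the differences were 0.80, 0.38, 0.16 and 0.12 in the order given, and without control 1 they were 1.26, 1.17, 0.35 and 0.46. Averaging the 4 probe sets gave 0.59. The size of the Csf1 difference thus depended on the probe set read, from 1.19-fold to 2.04-fold, and its direction did not.

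Il34, the other ligand of Csf1r, was read by 1 probe set. Its levels were 6.17 and 5.73 on the control arrays against 5.70 and 4.86 on the DIO arrays. DIO 1 lay only 0.029 below control 2, and the DIO arrays were 0.84 apart, so the difference of −0.67 ± 0.34 (SE) was set mostly by DIO 2. Without DIO 2 it was −0.25, and without DIO 1 it was −1.09. The ligands of this receptor therefore lay in opposite directions, Csf1 higher in DIO and Il34 lower, with Il34 the less certain of them.

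Csf1r, their receptor, was lower on both DIO arrays in all 3 probe sets. The levels on 1419872_at were 11.47 and 11.66 on the control arrays against 11.11 and 11.03 on the DIO arrays, a difference of −0.49 ± 0.13 (SE). On 1419873_s_at they were 9.87 and 9.94 against 9.50 and 9.35, a difference of −0.47 ± 0.13. The third, 1423593_a_at, gave 9.22 and 9.26 against 9.09 and 8.83, a difference of −0.28 ± 0.14, which was −0.15 without DIO 2 and −0.42 without DIO 1. Within each group the arrays differed by at most 0.26, less than the distance between the group means in each of the 3 probe sets. All 3 lay above the median of all probe sets on every array.

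Csf1r was bright on these arrays while the genes that define macrophages were mostly dim. Of 13 macrophage markers, 9 lay below the array's median, which was 5.61 to 5.65, on all 4 arrays. Ptprc, the pan-leukocyte phosphatase, was at 3.84 and 3.86 on the control arrays against 4.11 and 3.95 on the DIO arrays. Adgre1, the F4/80 antigen, was at 4.47, 4.75, 5.01 and 4.85 on control 1, control 2, DIO 1 and DIO 2, and Spi1, the myeloid transcription factor PU.1, at 5.61, 5.14, 5.52 and 5.58. The mean over the macrophage list was 5.42 and 5.39 on the control arrays against 5.42 and 5.41 on the DIO arrays, and the groups overlapped. The other 4 markers were Cd14, Cd68, Mertk and Fcgr3, and Cd68, which other cells also express, lay at 10.3 to 11.1. Mertk, a receptor kinase for dying cells, was at 8.74 and 8.67 on the control arrays against 8.44 and 8.46 on the DIO arrays. Fcgr3, an antibody receptor, was at 5.43 and 6.26 against 5.09 and 4.78. These 2 markers were lower on both DIO arrays, as Csf1r was, while 3 of the 13 were higher on both. Those shares, 15.4% below and 23.1% above, were near the 17.0% below and 21.4% above of all genes. The part of these markers' cells in the Csf1r level was not tested. Setting the levels of different genes side by side is rough on arrays, where each probe set binds with its own strength. Trophoblast genes, a list added after the values were seen, averaged 9.35 and 9.05 on the control arrays against 9.30 and 9.65 on the DIO arrays over 11 measured genes. Of these 11, 8 had a higher DIO mean, beside 9691 of all 18193 genes. The list mean was raised by its brightest genes, Krt8 and Krt18, at 13.7 to 14.1, while Tpbpa, its dimmest, was at 4.99 to 6.62. Prl3d1, Prl2c2, Gcm1 and Syna of this list were not measured. The part of trophoblast cells in the Csf1r level was not tested. In whole-culture RNA, fewer cells of a type and less RNA per cell cannot be told apart.

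**Figure D2:**
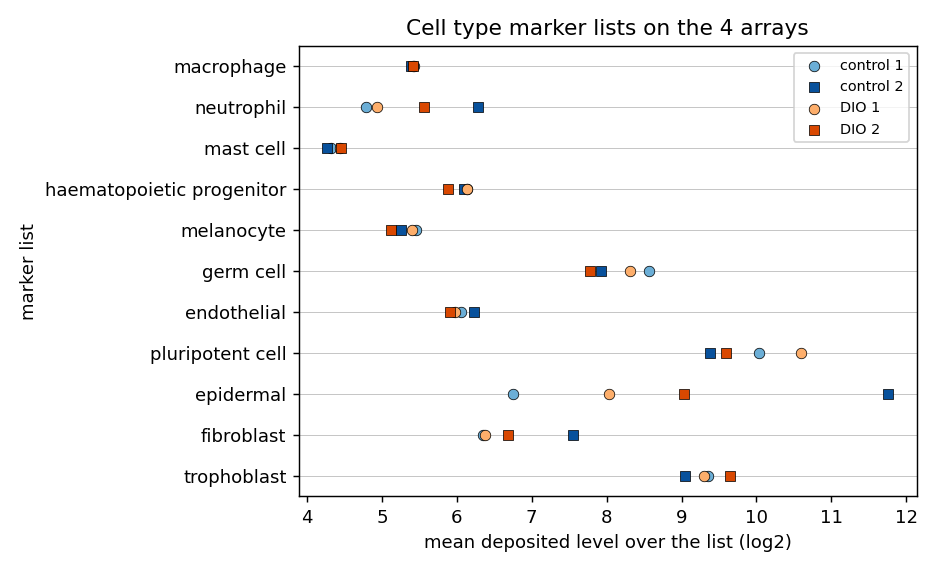
Mean deposited log2 level (horizontal axis) over each cell type marker list (rows), with a point for each of the 4 arrays. The macrophage means lie between 5.39 and 5.42 on all arrays, whereas the epidermal means spread from 6.75 in control 1 to 11.76 in control 2.

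Kitl, the ligand of Kit, had the clearest lower levels. On 1426152_a_at the levels were 8.94 and 9.08 on the control arrays against 8.11 and 8.17 on the DIO arrays. The arrays of a group lay within 0.145 of each other and the groups 0.77 apart. The difference was −0.87 ± 0.12 (SE), so that the control level was 1.83-fold the DIO level, and it was −0.80 without control 2. On 1448117_at the levels were 8.73 and 9.08 against 8.19 and 8.14, a difference of −0.74 ± 0.16. The remaining probe sets gave narrower gaps. On 1415854_at the levels were 7.67 and 7.76 against 6.96 and 7.48, a difference of −0.50 ± 0.21 that was −0.24 without DIO 1. On the brightest, 1415855_at, they were 11.11 and 11.46 against 10.84 and 11.09, a difference of −0.32 ± 0.18 with the groups 0.018 apart, and −0.14 without control 2. Averaged over its probe sets Kitl differed by −0.61, about the size of the averaged Csf1 difference with the sign turned.

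Kit, the receptor, gave no single picture. Its probe set 1452514_a_at was at 8.39 and 9.34 on the control arrays against 8.76 and 8.47 on the DIO arrays. Both DIO arrays fell between the controls, which differed by 0.95, and the difference of −0.25 ± 0.35 (SE) became 0.22 without control 2 and −0.73 without control 1. The dimmer probe set 1415900_a_at was at 5.13 and 5.45 against 4.79 and 4.98, a difference of −0.40 ± 0.17. Markers of cell types known for Kit were given beside it. Mast cell genes averaged 4.31 and 4.27 on the control arrays against 4.44 and 4.46 on the DIO arrays, all 8 below the array median on every array. Melanocyte genes averaged 5.46, 5.26, 5.41 and 5.13 on control 1, control 2, DIO 1 and DIO 2, and germ cell genes 8.57, 7.93, 8.31 and 7.78. None of these lists was highest in control 2, where Kit 1452514_a_at was highest. Among the other marker lists, the epidermal, fibroblast, neutrophil and endothelial means were highest there. Epidermal genes were at 11.76 against 6.75 to 9.04 elsewhere, with all 9 measured members highest there, against 3815 of all 18193 genes. Fibroblast genes were at 7.55 against 6.35 to 6.68, neutrophil genes at 6.29 against 4.79 to 5.56, and endothelial genes at 6.23 against 5.92 to 6.05. Their part in the Kit level was not tested. Genes of blood cell progenitors, which carry Kit, averaged 6.14, 6.10, 6.13 and 5.88 on control 1, control 2, DIO 1 and DIO 2.

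Csf2 (GM-CSF) and Csf3 (G-CSF), ligands that act on granulocytes and macrophages, were dim. Csf2 was at 3.61 and 3.49 on the control arrays against 3.90 and 3.85 on the DIO arrays, a difference of 0.32 ± 0.12 (SE). Csf3 was at 3.76 and 3.87 against 4.04 and 3.95, a difference of 0.18 ± 0.12. Both lay below the lower quartile of every array, 4.05 to 4.12, and no detection calls were used here, so whether either gene was expressed cannot be read from these levels. Csf3r, the receptor of Csf3, was at 4.50 and 4.42 on the control arrays against 5.04 and 5.10 on the DIO arrays. Its arrays agreed within 0.083 in each group and the groups lay 0.53 apart, a difference of 0.61 ± 0.12, below the array median throughout. Neutrophil markers, whose cells carry Csf3r, included S100a8 and S100a9, which epidermal cells also make. The list averaged 4.79 and 6.29 on the control arrays against 4.93 and 5.56 on the DIO arrays. Its mean was highest on control 2, where S100a8 was at 8.60 and S100a9 at 11.54. Of its 7 measured genes, Mpo, Elane and Ngp, which encode granule proteins, were higher on both DIO arrays than on both controls, as Csf3r was, and 0 were lower on both. That is 42.9% above, against 21.4% above and 17.0% below among all genes. By mean, 5 of the 7 were higher in DIO and 2, S100a8 and S100a9, lower. Dim probe sets leaned higher in DIO in general, as given in the next paragraph. Of the 8 mast cell genes, also dim, 5 lay above (62.5%) and 0 below. Mpo was at 4.03 and 4.20 against 4.42 and 4.70. The part of neutrophils in the Csf3r level was not tested.

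Among dim probe sets in general, a higher DIO level was the more common direction. All 45037 were put in 4 near-equal bins by mean level. In the dimmest bin, which holds Csf2 and Csf3, 26.2% had both DIO arrays above both controls and 12.2% had both below. In the next bin, which holds Csf3r, Il34, Csf1 1425155_x_at and Kit 1415900_a_at, the shares were 29.6% and 13.8%. In the third bin, which holds Csf1 1425154_a_at, Csf1 1448914_a_at and Kitl 1415854_at, they turned to 16.0% above and 27.5% below. In the brightest bin they were 17.3% above and 22.6% below. That bin holds Csf1 1460220_a_at, which was higher, and also all 3 Csf1r probe sets and 3 of the 4 for Kitl, which were lower. Whether this leaning of the arrays with brightness contributed to the members' values was not tested.

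**Figure D3:**
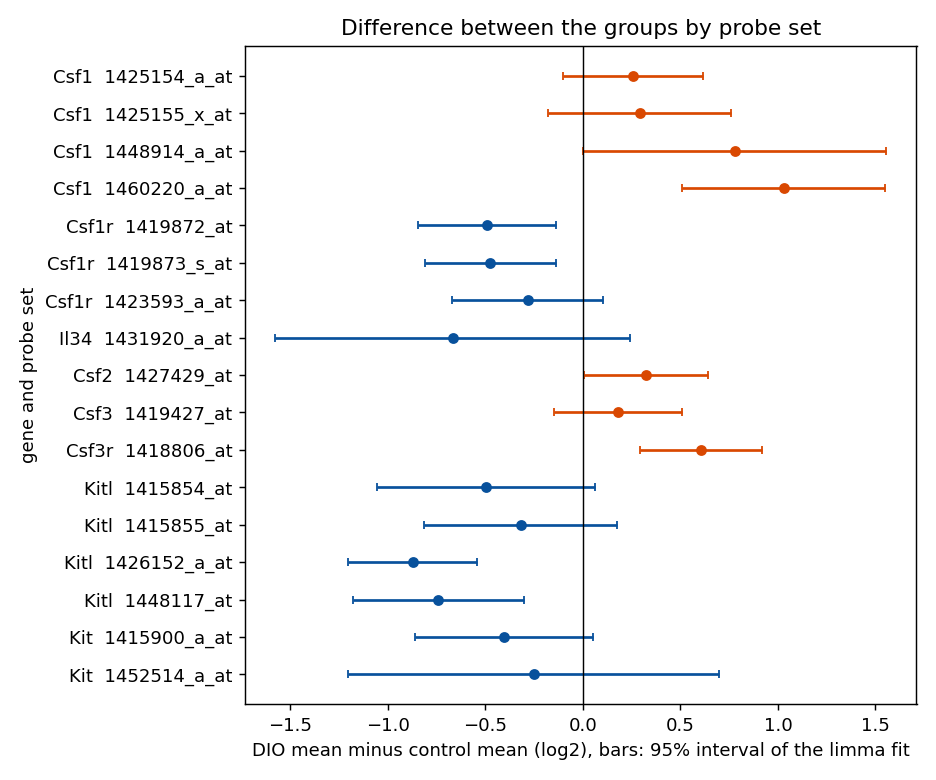
Difference of the group means, DIO minus control, in log2 units (horizontal axis) for each member probe set (rows), with bars for the unadjusted 95% interval of the limma fit and colour by sign. The differences run from −0.87 for Kitl 1426152_a_at to 1.03 for Csf1 1460220_a_at, and many intervals reach 0.

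Over the 17 probe sets, 7 had both DIO arrays above both controls, 9 had both below and 1 overlapped. Among all 45037 probe sets, 22.3% lay above in this way, 19.0% below and 41.3% in either direction. The mean difference exceeded the distance between the arrays of each group in 11 of the 17, against 29.1% of all probe sets. Since the members were chosen on this contrast, nothing is read from these shares. In limma, 0 of 45037 probe sets and 0 of 18193 genes passed a Benjamini-Hochberg adjusted p of 0.05, members included. An unadjusted p below 0.05 was reached by 1198 genes (6.58%), 594 with a higher and 604 with a lower DIO mean, a split that was 768 to 472 after quantile normalization. Leaving out control 1 gave 483 genes past the adjusted threshold, 34 higher and 449 lower in DIO. That fit sets both DIO arrays against control 2 alone, which is assumed to vary as the DIO arrays do. Leaving out any other array gave 0.

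**Figure D4:**
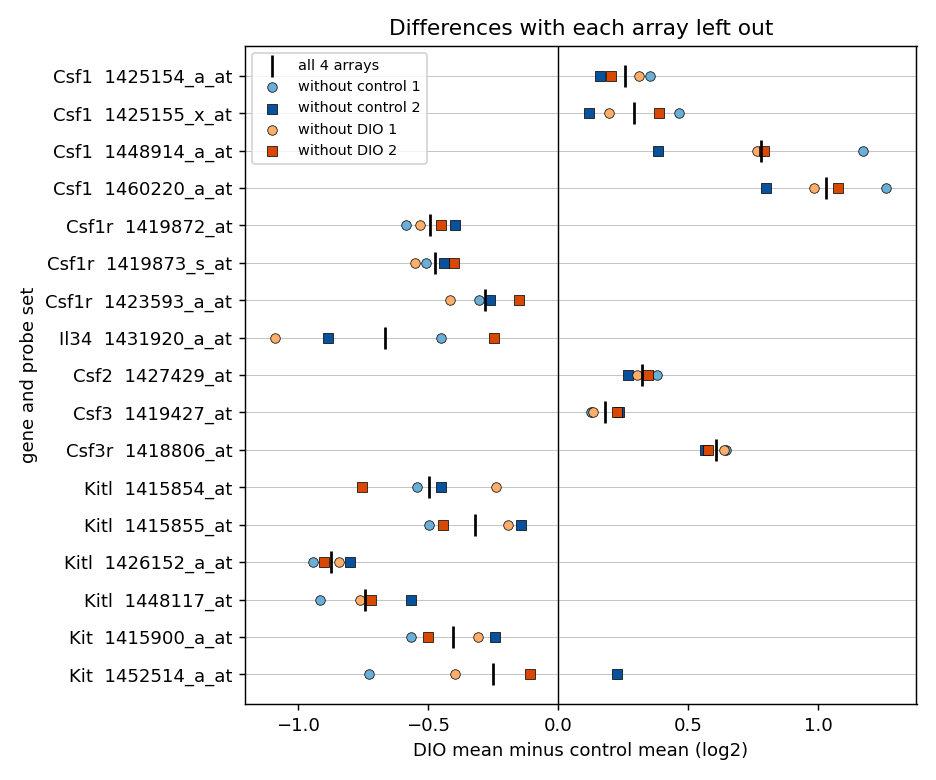
Group difference, DIO minus control, in log2 units (horizontal axis) for each member probe set (rows), with all 4 arrays (black bar) and with each array left out (points). Kit 1452514_a_at, at 0.22 without control 2, is the only row with a point on the other side of 0 from its bar.

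Other measures also differed between the arrays. The 18S ribosomal RNA probe sets averaged 12.60 and 12.65 on the control arrays against 12.30 and 11.96 on the DIO arrays, lower on both DIO arrays as Csf1r and Kitl were. The 3′ minus 5′ level of Gapdh, a measure of RNA integrity, was 0.10 and 0.15 on the control arrays against 0.069 and 0.21 on the DIO arrays, with no separation of the groups. Their part in the members' values was not tested. Markers of the labelled cell type were mixed in level. The 12 endothelial genes averaged 6.05 and 6.23 on the control arrays against 5.97 and 5.92 on the DIO arrays, and Tie1, Emcn, Erg and Fli1 lay below the array median on all 4 arrays. Cdh5, Esam and Egfl7 lay above it on every array, at 8.27 to 9.34, as did Pecam1, Kdr and Nos3, at 6.05 to 7.34. Tek and Vwf lay above it on some arrays and below it on others. The 10 genes of pluripotent cells averaged 9.39 to 10.60.

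The other genes of the pathway, 80 in 7 lists of which 72 were measured, gave 0 genes past the adjusted threshold in either direction (limma). Their median difference was −0.092, against 0.017 for all 18193 genes. The groups did not overlap for 29 of the 72, 7 above and 22 below, which is 40.3% against 38.4% of all genes. Among all genes 21.4% lay above and 17.0% below, against 9.72% and 30.6% of the pathway genes. The pathway genes were the brighter: 18 of the 72 lay below the array median on all arrays, against 6021 of all 18193. Brighter probe sets leaned lower in DIO in general, and whether this contributed to the pathway shares was not tested. An unadjusted p below 0.05 was reached by 3 genes, 4.17% against 6.58%, named here after their values were seen. They were Il1a, an inducer of colony-stimulating factors, at −0.68 ± 0.16 (SE), Stat3, a transcription factor downstream of Csf3r, at −0.47 ± 0.16 with 3 of its 4 probe sets of that sign, and Dok2, a docking protein of myeloid kinases, at 0.47 ± 0.17.

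Among receptors, the list of Csf2ra, the common beta chains and related cytokines had a median of 0.051 over 7 genes (−0.0088 without control 2), and the groups overlapped for all of them. Csf2ra, the ligand-binding chain for Csf2, was at 9.07 and 7.93 on the control arrays against 9.0 and 9.42 on the DIO arrays, a difference of 0.71 ± 0.44 (limma, adjusted p = 0.770) that was 0.14 without control 2. Its low value was on control 2 alone. Csf2rb, named outside the rule as the signalling chain it needs, was between 3.67 and 4.20 on the arrays, and Il3ra differed by 0.12 ± 0.15, which turned to −0.0088 without control 2. Kinases related to Csf1r and Kit, with their ligands, had a median of −0.28 over 7 genes, 4 of them highest in control 2, and the median turned to 0.053 without that array. Among all 18193 genes, 3815 were highest in control 2. Pdgfa and Pdgfb, ligands of the platelet-derived growth factor receptors, differed by 0.13 ± 0.18 and −0.16 ± 0.29, and turned to −0.043 without DIO 1 and 0.15 without control 1.

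Binding partners and shedding enzymes had a median of −0.027 over 8 genes, with 6 of them highest in control 2, against 3815 of all 18193 genes. It turned to 0.19 without control 2 and was −0.24 without control 1. Sdc1, a proteoglycan that binds Il34, differed by −0.41 ± 0.50 and by 0.23 without control 2, and the sheddase Adam10 by −0.10 ± 0.21 and by 0.15 without control 2. Adam17, the enzyme known to release Csf1 from the cell surface (named outside the rule for that role), differed by −0.21 ± 0.12 (limma, adjusted p = 0.761). Its levels were 9.95 and 10.03 on the control arrays against 9.79 and 9.76 on the DIO arrays. Other blood cell cytokines had a median of −0.11 over 6 genes, which turned to 0.023 without DIO 2. Of these, Lif differed by 0.21 ± 0.35 and by −0.26 without control 2, and the chemokine Cxcl12 by −0.10 ± 0.32 and by 0.30 without control 2.

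**Figure D5:**
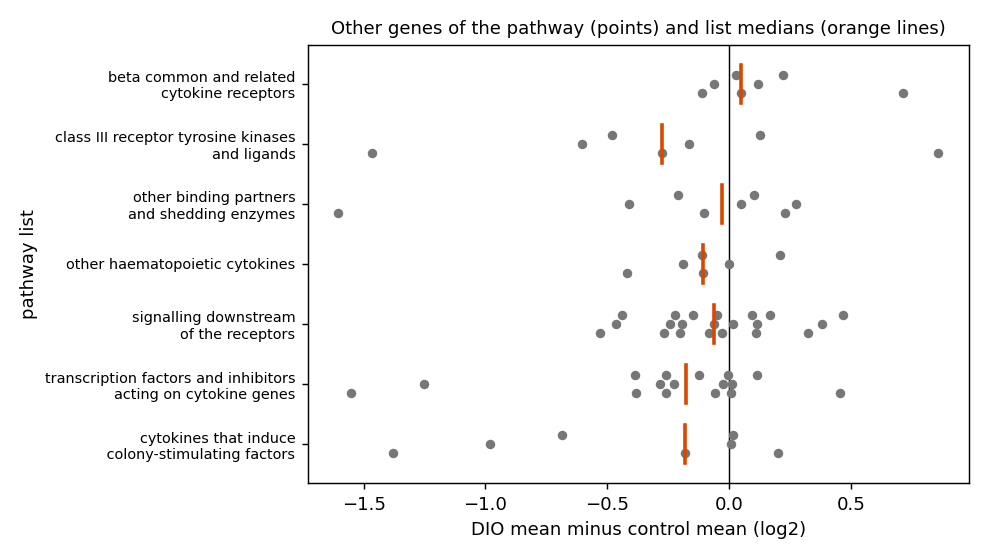
Group difference, DIO minus control, in log2 units (horizontal axis) for each measured gene (points) of 7 pathway lists (rows), with the list median as an orange line. The medians run from −0.28 to 0.051, and 0 of the 72 genes passed the adjusted threshold in limma.

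Downstream of the receptors, 21 measured genes had a median of −0.061, with 4 above and 7 below without overlap, 52.4% in all against the 38.4% of all genes. The median was 0.00016 without control 1 and −0.13 without control 2. Pik3cd, a catalytic subunit of phosphoinositide 3-kinase, differed by 0.11 ± 0.13, and Plcg2, a phospholipase, by −0.15 ± 0.35, which turned to 0.30 without control 1. Transcription factors and inhibitors that act on cytokine genes had a median of −0.18 over 16 genes, with 1 above (6.25%) and 8 below (50.0%) without overlap. Among all genes 21.4% lay above and 17.0% below. Of the 16, 0 lay below the array median on all arrays, and brighter probe sets leaned lower in DIO in general. Whether this contributed to the shares of this list was not tested. Nfkbia, the inhibitor that holds NF-kB in the cytoplasm and is itself an NF-kB target, was at 12.42 and 12.48 on the control arrays against 12.39 and 12.26 on the DIO arrays, a difference of −0.12 ± 0.13. Cebpb, a myeloid transcription factor, differed by −0.26 ± 0.16, and the NF-kB subunit Rela, named outside the rule for the site printed above, by −0.026 ± 0.14. Cytokines that induce colony-stimulating factors had a median of −0.18 over 7 genes, which turned to 0.062 without control 2, with Il1b at −0.18 ± 0.13 and Il18 at −1.38 ± 1.63. Il18 was at 9.81 in control 2 and at 5.18 to 6.48 on the other arrays, and its difference was 0.93 without control 2.

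The genes whose levels ran most like those of Csf1 were found by the root-mean-square distance between log2 profiles centred on their own means, over the 4 arrays and among genes brighter than 7.09, the median of gene means. They were the chromatin remodeller Hells at a distance of 0.030, Zfp229 at 0.068, the actin-binding protein Tagln at 0.096, Rida at 0.10 and the translation factor gene Eif2s3y at 0.12. Hells was at 9.46 and 9.05 on the control arrays against 10.39 and 10.27 on the DIO arrays, the order of Csf1, with control 2 lowest. With 4 arrays in 2 groups, a close profile says little more than a difference between the groups of like size.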

How the data were processed

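The authors deposited 1 table of log2 levels, with a row per probe set and a column for each of 4 arrays. No source used here gives the background correction, normalization, summary method or genome build. The log2 scale was inferred from the values, which run from 2.59 to 14.56. The platform annotation names 1 gene for 34945 probe sets, several for 932 and none for 9160. By gene number 34741 matched RefSeq (GRCm38.p6), with 0 symbols changed. After leaving out 64 manufacturer controls, limma 3.58.1 in R 4.3.3 (lmFit, eBayes, 2-sided, Benjamini-Hochberg) was fitted to all 45037 probe sets, for members, and to 18193 genes by their brightest probe set, for counts and lists. Precision is limited by the 2 arrays in each group. An exact permutation test of 2 against 2 cannot go below p = 0.333.

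The members and lists were chosen with earlier results of these data known. Named were all member probe sets, per list up to 3 genes past the threshold or otherwise the 2 brightest, and the 5 genes nearest Csf1, leaving out predicted and clone names. Genes named outside this rule are marked, except cell type markers. The fit was tested on simulated data: on 18193 genes it recovered 0% of 2-fold changes and 51.5% at a log2 change of 2. Alternatives were quantile normalization, median centring, trended and robust eBayes, the mouse number as a block, each array left out, no dim probe sets and averaged probe sets.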

Additional observations from a re-analysis of the deposited data

How the results depend on the processing

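Quantile normalization, centring or leaving out an array gave 102 values of the member differences, of which 1 changed sign (Kit 1452514_a_at, 0.22 without control 2). Leaving out an array moved 18 of 68 values, in 9 of the 17 probe sets, by over 1.5 times. The blocked and trended fits keep the difference itself by construction. The number of members with a higher DIO mean was 7 of 17, ranged from 7 to 8 with an array left out, and was 4 of 14 without the dimmest 40%, which leaves out Csf2, Csf3 and Csf3r. Genes past the adjusted threshold ranged from 0 to 483 with an array left out, and probe sets from 0 to 592, both highest without control 1. Genes at an unadjusted p below 0.05 ranged from 171 (without DIO 2) to 3689 (without control 1), and were 295 without DIO 1, 2265 without control 2 and 607 of 10916 genes without the dimmest 40%. Without the dimmest 40% their split was 216 higher and 391 lower. The median over the pathway genes was −0.062 after quantile normalization, −0.063 after centring, −0.11 without the dimmest 40%, −0.073 with averaged probe sets and −0.11 to −0.052 with an array left out. The cause of these shifts was not tested. With the replicate number as a block, 0 genes passed and 982 had an unadjusted p below 0.05. The numbers name mice and are not stated to pair them, and arrays with the same number deviated with a correlation of 0.33 over 18193 genes. No detection calls were used, so dim probe sets cannot be placed above background.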
